A study of Homo sapiens with 11 samples.

Results

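The genes described here are the receptors and ligands of the epidermal growth factor (EGF) system: the receptors EGFR, ERBB2 and ERBB3 and the ligands AREG, EREG, HBEGF, TGFA, BTC and NRG1. They were taken by symbol from the count table, where each of the 9 matched a single Ensembl ID among 57736. Of these 9, 8 passed the filter on low counts, along with 13980 genes in all, and BTC did not.

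The 11 RNA-seq libraries come from HEC50B, a human endometrial cancer cell line. Its PPP2R1A gene, which encodes a scaffold subunit of protein phosphatase 2A, carries R183W in the parental cells and was restored to wild type (WT) with CRISPR in the others. The labels do not say whether the restored cells are a single clone. Cells of either genotype were kept for 4 days in vehicle or in 50 µM of the KAT6A inhibitor WM1119; KAT6A is a histone acetyltransferase. The groups were R183W with vehicle (3 libraries), R183W with WM1119 (2 libraries), WT with vehicle (3 libraries) and WT with WM1119 (3 libraries). The labels number the replicates without calling them separate cultures, so the spread behind each p-value is that between these samples and may be technical.

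The ERBB receptors are tyrosine kinases of the plasma membrane that act as dimers. EGFR binds amphiregulin (AREG), transforming growth factor alpha (TGFA), heparin-binding EGF-like growth factor (HBEGF), epiregulin (EREG) and betacellulin (BTC), whereas ERBB3 binds neuregulin 1 (NRG1). ERBB2 has no known soluble ligand and serves as the preferred dimer partner. The ligands are made as membrane-anchored precursors that metalloproteases of the ADAM family release. Active receptors signal through RAS and ERK and through PI3-kinase, and several ligand genes are themselves induced by ERK signalling. In the endometrium these ligands are known as local growth signals between stroma and epithelium.

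Library totals ran from 2609922 to 6065149 counts. A count of 0 therefore allows up to 1.15 CPM in the shallowest library and 0.495 in the deepest, at a floor of 3 counts, and such floors cover counting error only. CPM here are counts relative to the library total after TMM scaling, which adjusts totals for library composition; the floors use the unscaled totals. Library 3 of the WT WM1119 group, the shallowest, stood apart: its log CPM correlated with its group at 0.917 and 0.937 across genes, against 0.957 or more for the other replicate pairs. Members' calls that move without it are named below, and the counts of the pathway lists without it follow those lists. Epithelial keratin 18 and the Müllerian factor PAX8 were abundant, at 1444 ± 112 and 434 ± 45.2 CPM (SD, n = 3) in R183W vehicle libraries. The progesterone receptor PGR and SOX17 had 0 counts in all 11 libraries. ESR1 gave 0 to 3 counts a library. The 7 endometrial markers summed to 619 to 675 CPM in R183W and 431 to 549 CPM in WT vehicle libraries. With WM1119 they summed to 632 to 697 and 574 to 673 CPM. FOXA2 differed most between genotypes, at 143 ± 15.9 CPM in R183W and 40.4 ± 0.599 CPM in WT vehicle libraries. The vehicle means of PAX8 (434 and 380 CPM) and EMX2 (9.16 and 6.42 CPM) went the same way. HOXA10 was alike (64.7 and 62.3 CPM). The 6 epithelial markers summed to 1655 to 1854 CPM in R183W and 979 to 1233 CPM in WT vehicle libraries, and to 1631 to 1632 and 1192 to 1543 CPM with WM1119. The 4 mesenchymal markers summed to 1296 to 1347 CPM in WT vehicle libraries and to 816 to 982 CPM in the WT WM1119 group, against 932 to 973 and 912 to 938 CPM in R183W cells. Of these 4, FN1 (fibronectin) differed most, at 566 ± 86.3 CPM in WT and 68.0 ± 6.32 CPM in R183W vehicle libraries. VIM went the other way, at 573 ± 50.0 and 694 ± 15.5 CPM, as did the mean of ZEB1 (59.0 and 66.9 CPM). CDH2 was alike (125 and 123 CPM), so the vehicle difference of the sum was that of FN1. With WM1119 in R183W cells the means of FN1 (154 ± 4.28 CPM, n = 2), CDH2 and ZEB1 were higher. That of VIM was lower (554 ± 6.83 CPM). The 6 fibroblast markers, which include PDGFRB, summed to 729 to 936 CPM with vehicle and 565 to 568 CPM with WM1119 in R183W cells, and to 613 to 695 and 843 to 896 CPM in WT cells. Nearly all of that sum was COL1A1, and COL3A1 and DCN were at 0 throughout. The means of PDGFRB and of LUM (at most 22 counts a library) were lower with WM1119 in both genotypes. The higher treated sum in WT cells was that of COL1A1, at 615 ± 38.8 CPM with vehicle and 844 ± 22.8 CPM with WM1119. The epithelial sum thus differed between genotypes without overlap under vehicle and under WM1119. Most of that sum was keratin 18 (KRT18), with vehicle means of 1444 CPM in R183W and 871 CPM in WT cells. KRT8 went the same way (236 and 151 CPM). EPCAM went the other way under vehicle (38.4 and 59.7 CPM), as did the mean of CLDN4. The remaining epithelial markers, CDH1 and KRT19, had at most 4 counts in any library. The endometrial and mesenchymal sums each differed with genotype under vehicle and with WM1119 in WT cells. The fibroblast sum differed with WM1119 in both genotypes, in opposite directions. The part of these markers in the results below was not tested. Leukocyte markers summed to 2.57 to 11.2 CPM, nearly all of it CD68, with CD3E and LYZ at 0 throughout, and the endothelial markers CDH5 and KDR were at 0. Gene counts can check neither the PPP2R1A codon nor the activity of KAT6A. PPP2R1A read 34.3 ± 2.86 CPM in R183W and 23.2 ± 2.69 CPM in WT vehicle libraries, without overlap. The log2 difference was 0.56 (SE 0.17, edgeR adjusted p = 0.0463), and its dependence on the settings was not examined. KAT6A was called in no comparison. Its largest change, with WM1119 in WT cells, was 0.58 (SE 0.18, edgeR adjusted p = 0.0896), without overlap.

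Per length, EGFR was the highest receptor transcript in all 4 groups, while the order of the ligands differed between groups. These levels are CPM per kilobase of merged exons in GENCODE release 29, so they depend on which isoforms are expressed. In WT vehicle libraries they were 61.8 ± 16.8 for AREG, 23.5 ± 4.27 for EREG, 11.2 ± 0.989 for EGFR and 8.49 ± 1.42 for HBEGF (SD, n = 3). They were 5.43 ± 0.603 for NRG1, 3.28 ± 0.424 for TGFA, 0.967 ± 0.153 for ERBB2 and 0.600 ± 0.315 for ERBB3. In R183W vehicle libraries EREG (15.5) and EGFR (14.5) led, followed by HBEGF (8.08), AREG (7.24), TGFA (6.31) and NRG1 (4.47). With WM1119 the R183W order was EGFR (9.36), HBEGF (8.24), EREG (6.25), TGFA (4.10), NRG1 (3.57) and then AREG (0.706). With WM1119 in WT cells AREG (10.8 ± 3.00), EREG (8.41 ± 1.78), EGFR (8.13 ± 2.12) and HBEGF (6.69 ± 1.43) lay within 1 SD of their neighbours in the order. In R183W cells the neighbours EREG and EGFR under vehicle, HBEGF, AREG and TGFA under vehicle, and TGFA and NRG1 under WM1119 also lay within 1 SD of each other.

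**Figure D1:**
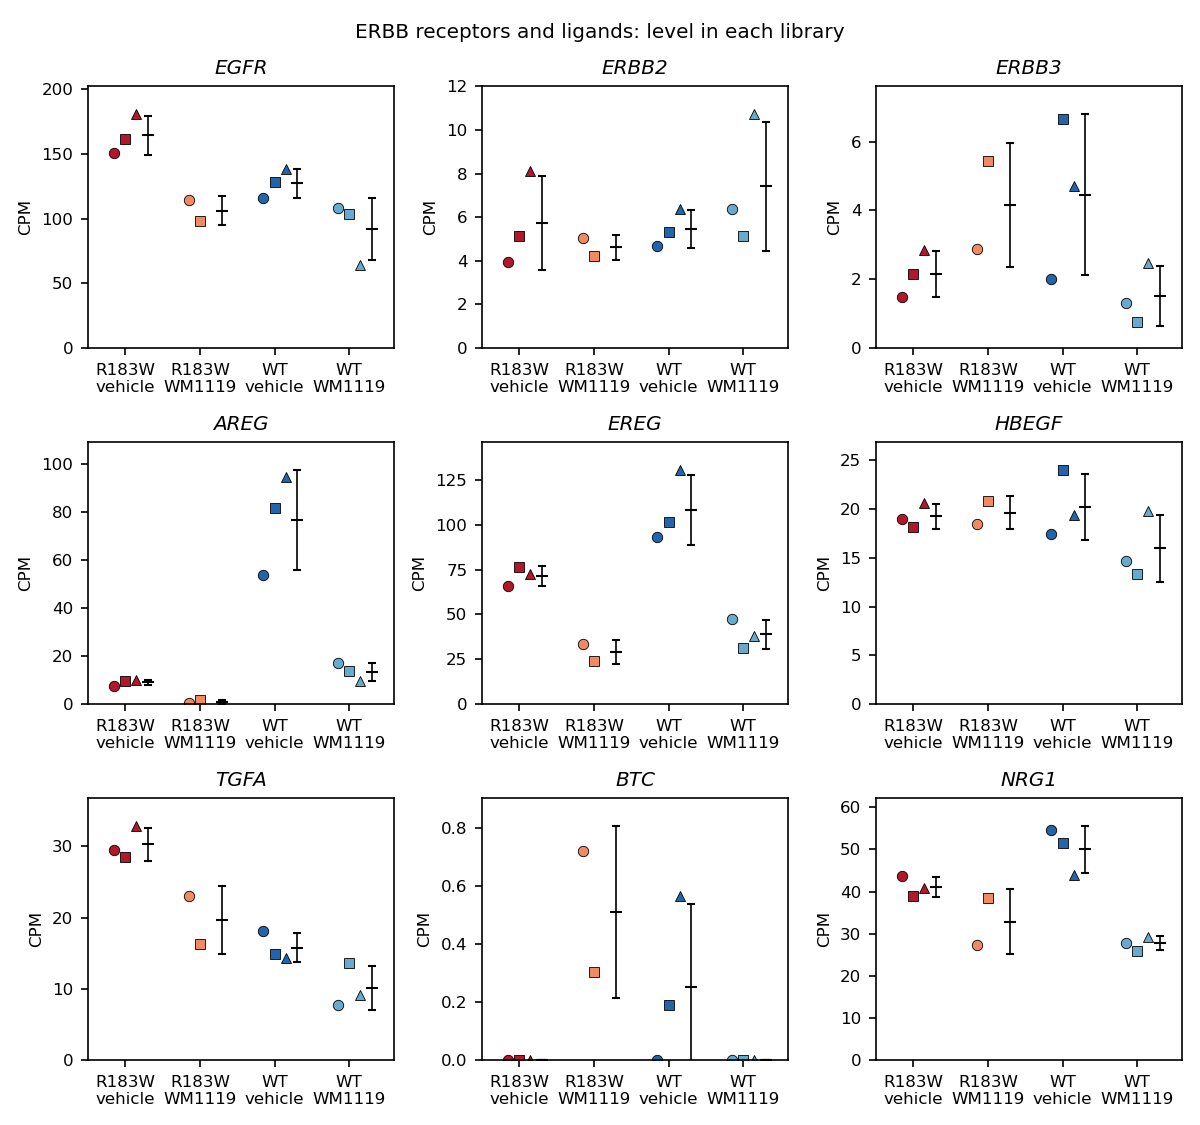
Level of each gene in CPM (vertical axes, linear and different for each panel) in every library of the 4 groups; circles, squares and triangles are replicates 1, 2 and 3, and the bars give mean ± SD. AREG lies between 53.8 and 94.7 CPM in WT vehicle libraries and at 16.9 CPM or less in every other library, while HBEGF stays between 13.4 and 24.0 CPM in all 11.

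The receptors were examined first. EGFR, the receptor of most ligands in the set, read 151, 161 and 181 CPM in R183W vehicle libraries and 114 and 98.2 CPM with WM1119. In WT cells it read 116, 128 and 138 CPM with vehicle and 108, 104 and 64.4 CPM with WM1119. In neither genotype did the treated and vehicle libraries overlap, yet neither difference passed the test. The log2 change was -0.63 (SE 0.20, edgeR adjusted p = 0.0895) in R183W cells and -0.46 (SE 0.17, edgeR adjusted p = 0.15) in WT cells. The R183W difference was called by DESeq2 (adjusted p = 0.0406), with no filter on low counts (edgeR adjusted p = 0.014), in a fit of those groups alone (0.00179) and without WT WM1119 library 3 (0.00423). Without that same library the WT change was -0.26. R183W cells had the higher EGFR level under vehicle, 164 ± 15.1 against 127 ± 11.2 CPM (n = 3 each), the log2 difference being 0.37 (SE 0.17, edgeR adjusted p = 0.182) that was called without WT WM1119 library 3 (0.0237) and in a fit of those groups alone (0.0378).

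ERBB2, the dimer partner, was low in every library, at 3.96 to 8.11 CPM in R183W and 4.69 to 10.7 CPM in WT cells. None of its differences passed, and the errors were wide: the log2 change with WM1119 was -0.29 (SE 0.43) in R183W and 0.40 (SE 0.37) in WT cells. ERBB3, the neuregulin receptor, was lower still and rested on 3 to 35 counts a library. It read 1.48, 2.14 and 2.84 CPM in R183W vehicle libraries and 2.88 and 5.44 CPM with WM1119. In WT cells it read 2.01, 6.67 and 4.70 CPM with vehicle and 1.32, 0.771 and 2.48 CPM with WM1119. The fitted changes had opposite signs, 0.93 (SE 0.61, edgeR adjusted p = 0.425) in R183W and -1.63 (SE 0.59, edgeR adjusted p = 0.13) in WT cells. Their difference was 2.57 (SE 0.85, edgeR adjusted p = 0.309), so no genotype dependence of the inhibitor effect on ERBB3 was shown at this depth. ERBB4, the remaining receptor of the family, gave 2 to 44 counts a library, and none of its differences passed (1 at an unadjusted p under 0.05, with WM1119 in WT cells; 0 called by DESeq2 or limma-voom).

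Among the ligands, AREG separated the groups most widely. AREG lies on chromosome 4, and so does EREG, its neighbour in the RefSeq annotation of GRCh38.p14: EREG spans 74365145 to 74388749 and AREG 74445136 to 74455005, with BTC (74744759 to 74794523) farther along. The counts were made on hg19, so these positions describe the loci and were not used to count. Both AREG and EREG were lower with WM1119 in both genotypes, so the 250 bases before their RefSeq start sites are shown, 5′ to 3′ on the + strand. Capitals mark matches to the motifs searched.

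AREG, chr4:74444886-74445135: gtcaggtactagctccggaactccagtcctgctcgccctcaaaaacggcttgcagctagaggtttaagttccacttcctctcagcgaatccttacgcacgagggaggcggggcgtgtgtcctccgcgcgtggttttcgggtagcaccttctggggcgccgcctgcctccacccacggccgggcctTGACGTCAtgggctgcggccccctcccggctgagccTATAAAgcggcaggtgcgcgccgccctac

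EREG, chr4:74364895-74365144: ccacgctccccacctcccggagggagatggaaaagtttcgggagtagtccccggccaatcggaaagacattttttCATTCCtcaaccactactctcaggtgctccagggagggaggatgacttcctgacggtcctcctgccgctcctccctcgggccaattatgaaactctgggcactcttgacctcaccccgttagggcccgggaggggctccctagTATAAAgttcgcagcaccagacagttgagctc

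Both strands were searched for the AP-1 motif TGANTCA, the TEAD motif GGAATG, the cyclic AMP response element TGACGTCA and the TATA motif TATAAA, the last pair chosen after the sequences were seen. The AREG window holds the cyclic AMP response element 65 to 58 bases and the TATA motif 29 to 24 bases before the start. The EREG window holds the TATA motif 32 to 27 bases and the TEAD motif, on the reverse strand, 175 to 170 bases before the start. No match overlapped another in these windows. Over 35116 RefSeq promoter windows of the same length, the shares with at least a match were 6.57% for AP-1, 11.9% for TEAD, 1.65% for the cyclic AMP response element and 10.7% for TATA. These matches describe the letters only.

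AREG read 53.8, 81.6 and 94.7 CPM in WT vehicle libraries and 7.59, 9.42 and 9.94 CPM in R183W vehicle libraries. The lowest WT library was well above the highest R183W library. The log2 difference was -3.10 (SE 0.28, edgeR adjusted p = 9.16e-06), and it was called with each library left out and with every other tool run. With WM1119, AREG read 16.9, 13.6 and 9.50 CPM in WT cells, below every WT vehicle library, the log2 change being -2.49 (SE 0.28, edgeR adjusted p = 0.000277). That call was kept under all 18 alternative settings. In R183W cells treated with WM1119 it was nearly absent, with 1 count (0.240 CPM) and 5 counts (1.51 CPM) in the 2 libraries, against 44 to 49 counts in vehicle libraries. In log2 terms this was -3.42 (SE 0.55, edgeR adjusted p = 0.00346), with a 95% interval of -4.61 to -2.23. It was lost with limma-voom (adjusted p = 0.0662) and without R183W WM1119 library 1, where the change was -2.56 (edgeR adjusted p = 0.0806), and it was -5.08 without library 2. Between the treated groups the R183W level was lower by a log2 step of -4.03 (SE 0.54, edgeR adjusted p = 0.000403), -3.17 without R183W WM1119 library 1 and -5.68 without library 2; these treated R183W values rest on 6 counts in all. The assembly used for counting is known to carry a near-identical second copy of AREG, whose counts were not analysed here, so the absolute AREG level is uncertain. If reads were shared between the copies, the share given to each may differ between libraries. The AREG changes, calls and near absence above therefore hold for the counted copy only, and the effect of the second copy was not tested.

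EREG, a related ligand that also binds ERBB4, followed in the same direction with smaller steps. It read 65.7, 76.4 and 72.4 CPM in R183W vehicle libraries and 33.6 and 24.2 CPM with WM1119. In WT cells it read 93.0, 101 and 131 CPM with vehicle and 47.4, 31.1 and 38.0 CPM with WM1119. Treated libraries lay below vehicle libraries in both genotypes, and WT vehicle libraries above R183W vehicle libraries. The log2 change with WM1119 was -1.30 (SE 0.22, edgeR adjusted p = 0.00495) in R183W cells and -1.48 (SE 0.19, edgeR adjusted p = 0.000829) in WT cells. The former was lost without R183W WM1119 library 2 (edgeR adjusted p = 0.116), while the latter was called under all 18 alternative settings. R183W against WT under vehicle gave -0.60 (SE 0.18, edgeR adjusted p = 0.0437). That call was lost with a replicate block (0.0838), without any R183W vehicle library (0.0922 to 0.175), without WT vehicle library 2 (0.0965) or 3 (0.194), and without R183W WM1119 library 1 (0.0525) or 2 (0.0526). Under WM1119 the groups overlapped, and the difference was -0.42 (95% interval -0.91 to 0.06, edgeR adjusted p = 0.277).

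Set against EREG within each library, which needs no scaling between libraries, AREG also differed between the groups. There were 57.8 to 80.5 AREG counts per 100 EREG counts in WT vehicle libraries and 25.0 to 43.8 with WM1119. In R183W libraries there were 11.6 to 13.7 with vehicle and 0.714 to 6.25 with WM1119. The 4 ranges did not overlap. The treated R183W ratios rest on 1 and 5 AREG counts, against 140 and 80 EREG counts. The second AREG copy, not analysed here, makes the size of these ratios uncertain too.

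**Figure D2:**
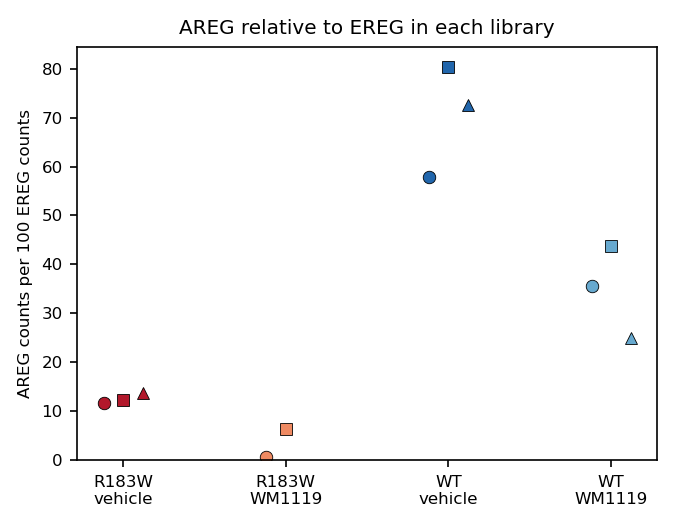
AREG counts per 100 EREG counts (vertical axis, linear) in each library of the 4 groups; circles, squares and triangles are replicates 1, 2 and 3. WT vehicle libraries lie at 57.8 or more, WT WM1119 libraries between 25.0 and 43.8, and all R183W libraries at 13.7 or less. The R183W WM1119 points rest on 1 and 5 AREG counts.

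TGFA, a ligand that binds EGFR alone, showed the opposite genotype difference. It read 29.5, 28.5 and 32.8 CPM in R183W vehicle libraries and 18.1, 14.9 and 14.3 CPM in WT vehicle libraries. The groups did not overlap, and the log2 difference was 0.94 (SE 0.22, edgeR adjusted p = 0.0132). It missed 0.05 without R183W vehicle library 3 (0.0558) and without WT vehicle library 2 (0.0592) or 3 (0.0604). With WM1119 it read 23.0 and 16.3 CPM in R183W cells and 7.69, 13.6 and 9.08 CPM in WT cells, again without overlap. That difference was 0.96 (SE 0.27, edgeR adjusted p = 0.0405), and it was lost under 10 of 18 alternatives, with adjusted p-values over the 18 from 0.0196 to 0.349. Those 10 were limma-voom (adjusted p = 0.0504), the replicate block (0.113), the fit of those groups alone (0.219), and the fits without any R183W vehicle library (0.0612 to 0.0631), WT vehicle library 2 (0.062), R183W WM1119 library 1 (0.349) or 2 (0.0749) or WT WM1119 library 1 (0.126). TGFA was also lower in every treated library than in any vehicle library of its genotype, with log2 changes of -0.61 (SE 0.25, edgeR adjusted p = 0.195) in R183W and -0.63 (SE 0.24, edgeR adjusted p = 0.155) in WT cells, neither of which passed. The R183W change was called only in a fit of those groups alone (edgeR adjusted p = 0.0419).

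NRG1, the ligand of ERBB3 and ERBB4, read 54.7, 51.5 and 43.8 CPM in WT vehicle libraries and 27.9, 25.9 and 29.3 CPM with WM1119. The treated libraries all lay below the vehicle libraries, the log2 change being -0.85 (SE 0.17, edgeR adjusted p = 0.0118). The call was lost by a small margin when library 2 of the WT vehicle group (0.0507) or of the WT WM1119 group (0.0538) was left out, and in a fit of those groups alone (0.058). In R183W cells NRG1 read 43.7, 39.0 and 40.8 CPM with vehicle and 27.4 and 38.4 CPM with WM1119, the treated libraries again below the vehicle libraries, by -0.33 in log2 terms (SE 0.19, edgeR adjusted p = 0.359). The inhibitor effects in the genotypes differed by 0.52 (95% interval -0.02 to 1.06, edgeR adjusted p = 0.565), so no genotype dependence was shown for NRG1. R183W against WT gave -0.28 under vehicle (edgeR adjusted p = 0.287) and 0.24 under WM1119 (0.487).

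HBEGF, which binds EGFR and ERBB4, passed in no comparison. It read 18.2 to 20.7 CPM in R183W vehicle, 18.5 and 20.8 in R183W WM1119, 17.4 to 24.0 in WT vehicle and 13.4 to 19.8 in WT WM1119 libraries. Compared groups overlapped in all 4 comparisons. Its log2 change with WM1119 was 0.03 in R183W cells (95% interval -0.47 to 0.52, edgeR adjusted p = 0.966) and -0.36 in WT cells (95% interval -0.81 to 0.08, edgeR adjusted p = 0.341). BTC, betacellulin, gave 3 and 1 counts in the R183W WM1119 libraries, 0, 1 and 3 counts in the WT vehicle libraries, and 0 counts in the other 6 libraries. It was too low to be tested.

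Counted together, WM1119 lowered 2 of the 8 tested members in R183W cells (AREG and EREG) and 3 in WT cells (AREG, EREG and NRG1), and raised none in either. Over all 13980 genes, 4.64% were called in R183W cells (1.99% higher, 2.65% lower) and 4.86% in WT cells (2.33% higher, 2.53% lower). The median log2 change of the 8 was -0.47 in R183W and -0.74 in WT cells, against -0.00107 and -0.00312 over all genes. Without R183W WM1119 library 1 or 2 the R183W count was 1, with limma-voom 1, and in a fit of those groups alone 4. R183W cells differed from WT cells in 3 members under vehicle, AREG and EREG lower and TGFA higher, and in 2 under WM1119, AREG lower and TGFA higher. Of all genes, 13.0% were called under vehicle (6.82% higher, 6.17% lower) and 8.56% under WM1119 (4.64% higher, 3.92% lower). The vehicle count was 1 when R183W vehicle library 3, or library 2 or 3 of the WT vehicle group, was left out. The members were chosen with results of these data known, so these counts are a description.

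**Figure D3:**
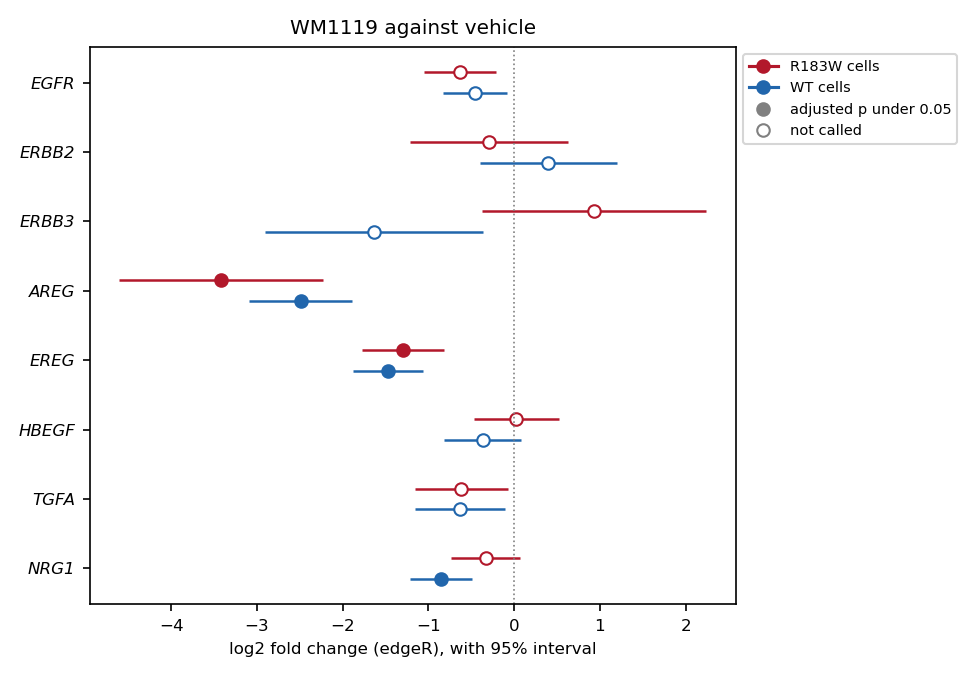
Log2 fold change with WM1119 against vehicle (horizontal axis) for the 8 tested genes, in R183W cells (red) and WT cells (blue). Lines are 95% intervals and filled points passed an adjusted p of 0.05; AREG and EREG are filled in both genotypes and NRG1 in WT cells.

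**Figure D4:**
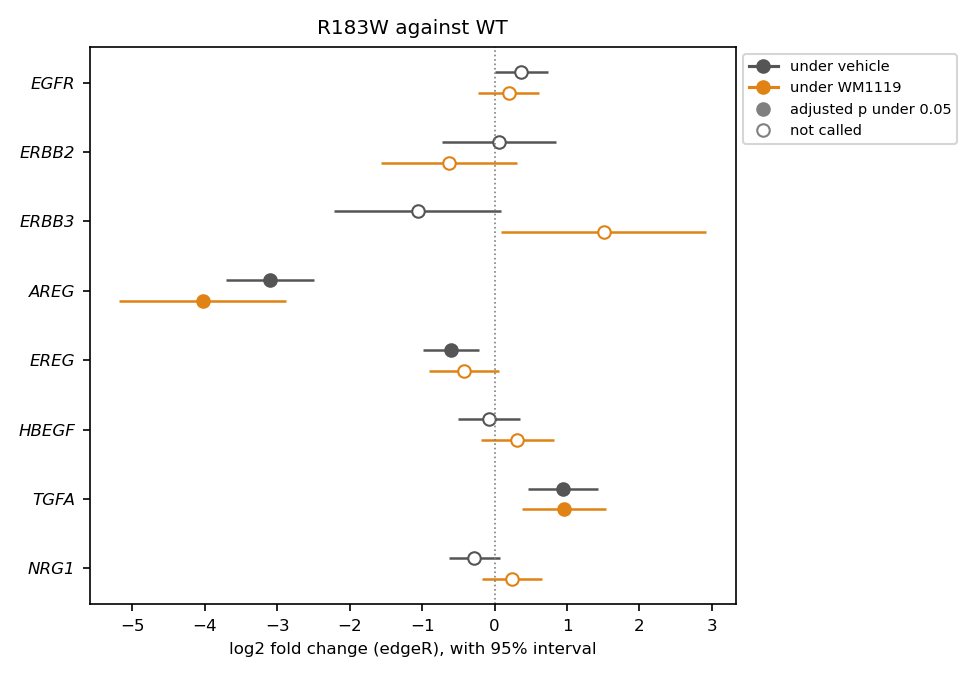
Log2 difference of R183W against WT cells (horizontal axis) for the 8 tested genes, under vehicle (grey) and under WM1119 (orange), with 95% intervals; filled points passed an adjusted p of 0.05. AREG lies at -3.10 and -4.03 and TGFA at 0.94 and 0.96, while the intervals of ERBB2, HBEGF and NRG1 include 0 in both comparisons. The intervals of ERBB3 under vehicle and of EGFR and EREG under WM1119 include 0 as well.

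No member's inhibitor effect was shown to differ between the genotypes: edgeR, DESeq2 and limma-voom called 0 of 8 in the interaction, where edgeR called 0.286% of all genes (0.0930% higher, 0.193% lower). At an unadjusted p under 0.05 there was 1, ERBB3. For AREG the effects differed by -0.93 (95% interval -2.40 to 0.54) and for EREG by 0.18 (-0.44 to 0.80). The summed level of the 6 ligands was 165 to 177 CPM in R183W and 237 to 303 CPM in WT vehicle libraries. With WM1119 it was 101 to 103 CPM in R183W and 97.6 to 115 CPM in WT cells. In CPM, which does not adjust for transcript length, the genotypes were thus apart under vehicle and overlapped under WM1119. The sum was not made per length. Under WM1119 AREG was still lower in R183W than in WT cells (means 0.875 and 13.3 CPM), and TGFA higher (19.7 and 10.1 CPM). The other tested ligands were not called there. The summed level of the 3 receptors was 156 to 192 and 122 to 149 CPM with vehicle, and 108 to 122 and 77.6 to 116 CPM with WM1119, in R183W and WT cells. These sums are descriptions, and in bulk libraries fewer cells with a transcript and less transcript per cell cannot be told apart.

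Of the rest of the family, NRG2 read 4.83 to 12.2 CPM in the 11 libraries and did not pass in any comparison. EGF itself gave 0 to 6 counts a library. NRG3 had 0 counts in all 5 R183W libraries and 1 to 5 counts in each of the 6 WT libraries, which is too low to test. EPGN, which lies next to EREG, and NRG4 had 0 counts in all 11 libraries.

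The genes that act on the ligands and receptors were then described from 5 lists. Their counts are to be read beside the shares of all 13980 genes called. With WM1119 these were 1.99% higher and 2.65% lower in R183W cells, and 2.33% and 2.53% in WT cells. For R183W against WT they were 6.82% higher and 6.17% lower under vehicle, and 4.64% and 3.92% under WM1119. Of 12 tested genes of ligand shedding and release, edgeR called 0 with WM1119 in either genotype (0 and 2 at an unadjusted p under 0.05), as did DESeq2 and limma-voom, with medians of -0.11 and -0.10. Between genotypes, the metalloprotease ADAM19 was lower in R183W cells under vehicle, at 4.97 ± 2.05 against 14.4 ± 2.71 CPM (n = 3 each), the log2 difference being -1.54 (SE 0.33, edgeR adjusted p = 0.00732). ADAM15 was higher by 0.85 under vehicle (SE 0.23, edgeR adjusted p = 0.025) and by 0.93 under WM1119 (SE 0.25, 0.034), each call being lost in 5 of 11 fits that left out a library. The shedding counts moved without WT WM1119 library 3: 2 were higher and 3 lower in R183W cells under vehicle (1 and 1 with it) and 3 higher and 5 lower under WM1119 (1 and 0 with it). With WM1119, 1 was then higher and 1 lower in R183W cells, and 1 higher in WT cells.

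Among 18 receptor inhibitors, turnover factors and chaperones, 3 fell with WM1119 in R183W cells and 1 in WT cells. Over all genes 2.65% and 2.53% were called lower in these comparisons. SH3KBP1, an adaptor of CBL-mediated receptor endocytosis, fell to 97.3 ± 10.6 CPM (n = 2) against 177 ± 17.7 in vehicle (n = 3), the log2 change being -0.87 (SE 0.16, edgeR adjusted p = 0.00606; at most 0.116 with a library left out). ERRFI1, a feedback inhibitor of EGFR, fell from 62.8 ± 5.48 to 32.6 ± 5.89 CPM (edgeR adjusted p = 0.0479), a call lost in 7 of 11 fits that left out a library and with the replicate block (0.119). HSP90AA1, the chaperone, changed by -0.42 (edgeR adjusted p = 0.0435; lost in 6 of those 11 fits, with the replicate block at 0.135 and with robust dispersion at 0.0625). In WT cells PTPN12, a tyrosine phosphatase, changed by -0.65 (SE 0.13, edgeR adjusted p = 0.0113; 0.0543 without WT vehicle library 3 and 0.0847 in a fit of those groups alone). The ubiquitin ligase CBLB was lower in R183W cells under vehicle, at 13.9 ± 0.180 against 31.0 ± 0.957 CPM, the log2 difference being -1.16 (SE 0.20, edgeR adjusted p = 0.00209), and it was called with each library left out. Under vehicle 3 others were higher in R183W cells (STUB1, CDC37 and HSP90AA1), but with a library left out that number ran from 0 (without WT vehicle library 3) to 4. STUB1 was lost in 2, CDC37 in 4 and HSP90AA1 in 4 of 11 such fits, and the replicate block ended the CDC37 (0.0574) and HSP90AA1 (0.0755) calls. Under WM1119 CBLB and SH3KBP1 were lower, each lost in 1 of 11 fits (without R183W WM1119 library 2 for CBLB and library 1 for SH3KBP1) and in a fit of those groups alone (0.112 and 0.063). With a library left out, the number that fell with WM1119 in R183W cells ranged from 0 to 5. Without WT WM1119 library 3 it was 5, and under WM1119 2 genes were then higher in R183W than in WT cells. Without WT WM1119 library 1, 2 genes of this list were higher and 2 lower with WM1119 in WT cells.

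Of 22 adaptors and proximal kinases, 2 rose with WM1119 in R183W cells, where 1.99% of all genes were called higher. By edgeR 0 changed in WT cells (6 at an unadjusted p under 0.05, 0 called by DESeq2 and limma-voom). Without WT WM1119 library 1, 2 were called higher in WT cells, and with no filter on low counts 1 was. PIK3R3, a regulatory subunit of PI3-kinase, rose to 23.0 ± 3.73 CPM (n = 2) against 10.5 ± 2.01 in vehicle (n = 3), the log2 change being 1.13 (SE 0.24, edgeR adjusted p = 0.0149), lost without R183W vehicle library 1 or 2 or either R183W WM1119 library (up to 0.187). SHC2, an adaptor, changed by 1.40 (edgeR adjusted p = 0.0473; lost in 7 of 11 fits that left out a library, with the replicate block at 0.128 and with limma-voom at 0.085). Under vehicle both were lower in R183W than in WT cells, PIK3R3 by a log2 step of -1.74 (SE 0.21, edgeR adjusted p = 0.000111) and SHC2 by -1.66 (SE 0.33, 0.00468). SHC1, the main SHC adaptor, was higher there, at 287 ± 34.4 against 165 ± 24.6 CPM (n = 3 each; edgeR adjusted p = 0.00351). In all, 2 were higher (SHC1 and STAT3) and 3 lower (PIK3R3, SHC2 and RASA1, the last named after its value was seen) under vehicle. The STAT3 call was lost in 5 of 11 fits that left out a library (up to 0.0946) and with the replicate block (0.0519). Under WM1119 SHC1 was higher, a call lost without R183W WM1119 library 1 (0.0619). PIK3R3 was lower, a call lost in 3 of 11 such fits (up to 0.202), with the replicate block (0.074) and in a fit of those groups alone (0.0979). Without WT WM1119 library 3, 4 of these genes were higher with WM1119 in R183W cells, and 2 were higher in R183W than in WT cells under WM1119.

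Among 18 transcriptional outputs of ERBB and ERK signalling, a list chosen with results of these data known, 2 fell and 1 rose with WM1119 in R183W cells and 4 fell in WT cells, with medians of -0.36 and -0.28. Over all genes 2.65% were called lower and 1.99% higher in R183W cells, and 2.53% lower in WT cells. FOSL1, an AP-1 subunit, fell by 1.90 on the log2 scale (SE 0.18) in R183W cells and by 2.32 (SE 0.16) in WT cells, where it went from 74.6 ± 7.93 to 14.7 ± 2.38 CPM. DUSP5, a phosphatase of ERK, fell from 192 ± 2.09 to 76.9 ± 1.92 CPM and from 338 ± 17.0 to 135 ± 3.79 CPM. Both calls held with each library left out in both genotypes (edgeR adjusted p at most 0.00436). PHLDA1 and DUSP4 completed the WT calls, and the gene that rose in R183W cells was SPRY2 (log2 change 0.57, edgeR adjusted p = 0.042; lost in 9 of 11 fits that left out a library, with the replicate block at 0.11 and with no filter at 0.0731). The DUSP4 call was lost in 3 of 11 fits (up to 0.0682), with the replicate block (0.0546) and in a fit of those groups alone (0.0826). EGR1, an immediate early factor, was higher in R183W cells under vehicle, at 101 ± 10.1 against 23.9 ± 6.20 CPM (edgeR adjusted p = 3.21e-05). DUSP5 was lower there by a log2 step of -0.81 (SE 0.11, edgeR adjusted p = 0.000198). Under WM1119 4 outputs were higher in R183W than in WT cells, EGR1, PHLDA1, FOSL1 and SPRY2 (the last named after its value was seen), and DUSP5 was lower. The number higher was 0 without R183W WM1119 library 2 and 1 without library 1. EGR1 was lost in 1, PHLDA1 in 2, FOSL1 in 2 and SPRY2 in 3 of 11 fits that left out a library. The replicate block ended the SPRY2 call (0.0573), and a fit of those groups alone ended the FOSL1 (0.158), SPRY2 (0.109) and PHLDA1 (0.0804) calls. Without WT WM1119 library 3, 5 outputs were lower with WM1119 in R183W cells and 5 in WT cells. Between genotypes 4 were then higher and 2 lower under vehicle, and 6 higher and 2 lower under WM1119.

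Other receptor tyrosine kinases were listed for comparison, and 17 were tested. With WM1119, AXL and PDGFRB fell in R183W cells. By edgeR 0 changed in WT cells (6 at an unadjusted p under 0.05, 1 called by DESeq2 and 1 by limma-voom, and 3 lower without WT WM1119 library 3). The platelet-derived growth factor receptor PDGFRB stood at 38.5 ± 12.1 CPM in WT and 5.82 ± 2.16 CPM in R183W cells under vehicle, and at 22.5 ± 8.25 and 0.271 ± 0.0439 CPM under WM1119. The vehicle difference was -2.74 (SE 0.34, edgeR adjusted p = 0.000132). The treated R183W level rests on 1 count in each library, and the PDGFRB call with WM1119 in R183W cells was lost without either (up to 0.124) and with limma-voom (adjusted p = 0.148). ROR2 went the other way, with genotype differences of 3.84 (SE 0.40, edgeR adjusted p = 3.03e-05) and 3.66 (SE 0.42, 0.000101). Under vehicle AXL was higher in R183W cells by 1.03 (edgeR adjusted p = 0.00143) and DDR1 lower by a log2 step of -0.81 (0.00133). Under WM1119 ROR1 was higher by 0.60 (edgeR adjusted p = 0.0344) and MET by 0.48 (0.0336). The ROR1 and MET calls were lost without R183W vehicle library 2 or 3 or WT vehicle library 2, and in other such fits. Without WT WM1119 library 3, 6 of these receptors were higher and 3 lower in R183W cells under vehicle (2 and 2 with it), and 3 higher and 4 lower under WM1119 (3 and 1 with it). In the interaction edgeR made 0 calls in each of the 5 lists (1 to 4 genes a list at an unadjusted p under 0.05), limma-voom made 0, and DESeq2 called 1 output higher and 1 receptor inhibitor or chaperone lower. Without that library edgeR called 1 output higher and 1 of these receptors lower.

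**Figure D5:**
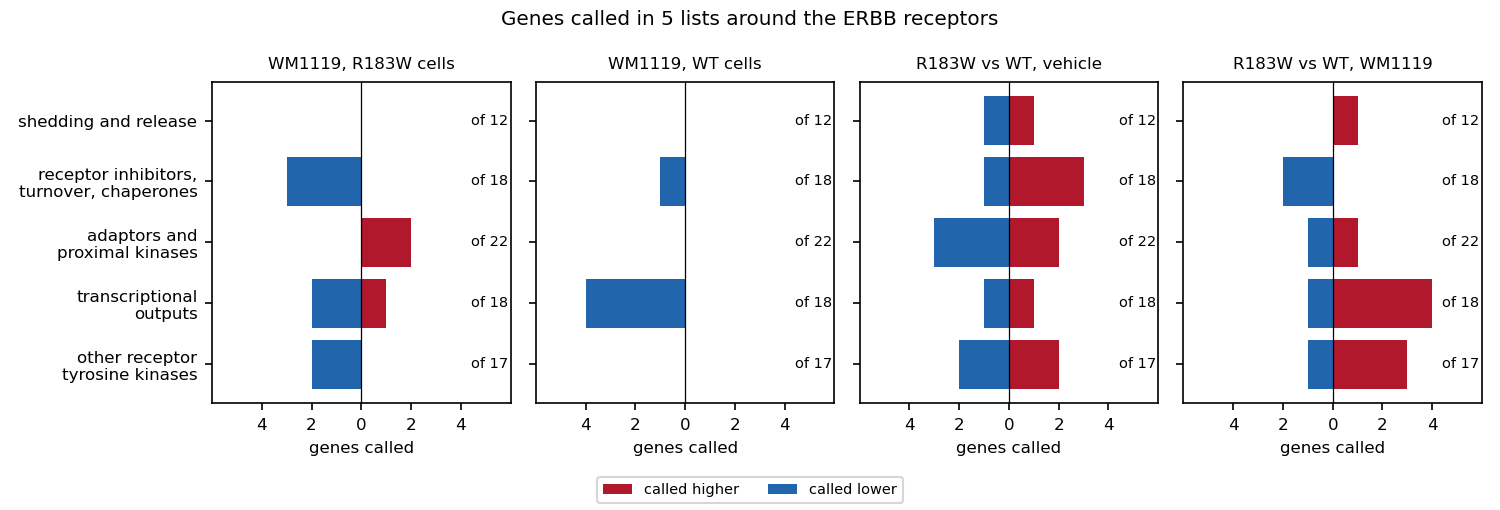
Number of genes called at an adjusted p under 0.05 (horizontal axis; higher to the right in red, lower to the left in blue) in 5 lists and 4 comparisons, with the number tested at the right of each bar. Genes of shedding and release have no call with WM1119, and the transcriptional outputs have 4 lower in WT cells. Of all genes tested, 2.53% were called lower with WM1119 in WT cells.

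For each tested member, the genes with the most similar pattern over the 11 libraries were sought among 10198 genes of at least 5 CPM on average. The libraries fall into 4 groups, so these correlations mostly reflect shared group differences and are given as descriptions. AREG was matched by ID4 (Pearson r = 0.987), GFPT2 (0.984) and FOSL2 (0.982), and EREG by STMN3 (0.965), RFK (0.953) and PTGS1 (0.947). TGFA was matched by EML2 (0.955), TMEM156 (0.952) and AEBP1 (0.948). NRG1 was matched by DUSP4 (0.941), SERPINE2 (0.936) and CD70 (0.925), and EGFR by PGK1 (0.974), COTL1 (0.973) and MTMR6 (0.969). The closest genes for the other 3 members reached lower values: 0.852 for ERBB2 (ABHD2), 0.884 for ERBB3 (ZSCAN30) and 0.882 for HBEGF (ACOT4).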

How the data were processed

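The authors deposited a table of counts per Ensembl gene, in whole numbers and not normalized. STAR, RSEM and hg19 appear in the submitters' processing notes, without versions or roles, and no annotation is named there. If RSEM made the counts, reads that match several genes were shared out by estimation. The counts were used as deposited, so the planned rounding changed nothing. Symbols were matched by ID. Genes were kept by filterByExpr, and 13980 held at least 99.7% of each library's counts. Tests used edgeR 4.0.16 in R 4.3.3 (quasi-likelihood F test, two-sided, TMM, all 11 libraries, 4 group means, no replicate block; biological coefficient of variation 19.6%), with Benjamini-Hochberg adjustment over all genes tested and calls at an adjusted p under 0.05. The 95% intervals use the fit's degrees of freedom. The fit was tested on simulated data, with 66 or 67 of 13980 genes changed at each fold and genes removed by the filter counted as missed. Fewer genes changed there than were called in the comparisons of groups, so the shares recovered need not be those of the data. In the 4 comparisons of groups it recovered 0% to 4.48% of 1.5-fold, 25.4% to 49.3% of 2-fold and 71.2% to 80.3% of 4-fold changes. For the interaction these shares were 1.49%, 5.97% and 53.0%. A difference that did not pass is therefore not shown to be absent. Alternatives were DESeq2 1.42.0, limma-voom (limma 3.58.1), other size factors, no filter, robust dispersion, a replicate block, fits of only the groups compared, and each library left out. All 9 members were named, with every other family gene and up to 4 called genes of each list per comparison. Members and lists were chosen with earlier results of these data known. Applying the alternatives to the lists was decided after seeing the data. Promoter sequences are from RefSeq (GRCh38.p14), by symbol, and end at the start site.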

Additional observations from a re-analysis of the deposited data

How the results depend on the processing

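Over 8 tested members and 5 comparisons, 712 recomputed changes kept their direction and side of the threshold in 660 cases, 27 lost a call, 7 gained a call and 18 changed sign, the cause of which was not tested. Most of the 712 belong to changes not called in the fit reported, which could not lose a call. The 660 are therefore no measure of how well the calls held. The count of members called for WM1119 in R183W cells was 2, and 1 with limma-voom and 4 in a fit of those groups alone; with a library left out it ran from 1 to 3. In WT cells it was 3, and 2 to 3 with a library left out. The vehicle genotype count was 3, and 1 to 4 with a library left out. The WM1119 genotype count was 2, and 1 with limma-voom, with the replicate block and in a fit of those groups alone; with a library left out it ran from 1 to 2. Where a lone R183W WM1119 library remained, it was assumed to vary like the other groups. Among the members, the replicate block ended the EREG genotype call under vehicle and the TGFA genotype call under WM1119, and no other call. Same-numbered libraries deviated with correlations of -0.391 to 0.137, and 2 of 11 libraries correlated best with their own number, so no pairing by number was shown. Deviations from the mean of a small group are tied to each other, so this check cannot exclude a pairing.

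No call changed sign. Signs that turned were of small, uncalled values: ERBB2 genotype under vehicle was -0.023 with limma-voom (0.06 in the fit reported), and the TGFA interaction was -0.0066 with the replicate block (0.02). With a library left out, log2 values ran from -0.54 to 0.039 for ERBB2 and -0.071 to 0.093 for HBEGF (WM1119, R183W cells), -0.27 to 0.29 for ERBB2 and -0.16 to 0.081 for HBEGF (genotype, vehicle), and -0.012 to 0.32 for EGFR and -0.015 to 0.46 for NRG1 (genotype, WM1119). In the interaction they ran from -0.10 to 0.38 for EREG and -0.28 to 0.30 for TGFA. Depth limits ERBB2, ERBB3, BTC and AREG in treated R183W cells, which rest on few counts.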
